A study of Mus musculus with 12 samples.

Results

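MHC class II molecules display peptides from the endosomes to CD4+ T cells, and 9 mouse genes of this route were examined: H2-Aa, H2-Ab1, H2-Eb1, Cd74, Ciita, H2-DMa, H2-DMb1, H2-Oa and H2-Ob. They were picked by name, with earlier results of these data known. All 9 were found among the 23301 gene names that the 12 expression tables share. The study sequenced poly-A RNA of mouse mammary tissue in 4 groups of 3 replicates, all from animals 12 weeks old. Normal was the untreated mammary gland of FVB wild type females, and for each replicate the abdominal and the inguinal glands of 3 mice were pooled. Tumor was untreated tumor tissue of heterozygous MMTV-PyVT females, taken from the thoracic gland of 1 mouse for each replicate. In this strain the mouse mammary tumor virus promoter drives the polyoma middle T antigen in the mammary epithelium. DMSO and C646 were tumors of MMTV-PyVT mice injected with the solvent DMSO or with C646, an inhibitor of the histone acetyltransferase p300, and the biggest tumor of each mouse was used. The labels give 1 mg/kg for both injections. Normal was compared with Tumor and DMSO with C646. The first comparison asks what differs in the tumor, and the second what the inhibitor changes in it.

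A class II molecule pairs an alpha and a beta chain around a peptide groove. The invariant chain, encoded by Cd74, fills that groove until proteases of the endosome cut it down to a short remnant, which H2-DM exchanges for another peptide, and H2-O holds H2-DM back. Apart from Ciita itself, the genes are switched on together by CIITA, a coactivator that binds no DNA. It joins factors sitting on the X and Y boxes of the promoters, and it recruits histone acetyltransferases such as p300 and CBP. B cells, dendritic cells and macrophages carry class II, and interferon gamma can induce it in other cells.

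The promoter boxes are shown because they are the elements through which CIITA acts. Whether all 9 genes carry them could not be checked here. RefSeq promoter windows of GRCm38.p6, which run from 250 bases before to 50 bases after a transcription start, were given for 6 of the 9 genes. H2-Ab1, Cd74 and Ciita had no window in the table. The letters searched, on both strands, were CNNGNAAC for the X box and GATTGG for the Y box, with 10 to 35 bases between them, so that the boxes cannot overlap. The X box letters were chosen after the windows had been read. The ordered pair was found in 5 genes and in 0 of the 2 windows of H2-DMa. In the lines that follow, each 5′ to 3′ on the strand of the gene, capitals mark the X box and then the Y box.
H2-Aa, chr17:34287861-34287913, minus strand: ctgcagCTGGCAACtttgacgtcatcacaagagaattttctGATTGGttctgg
H2-Eb1, chr17:34305767-34305818, plus strand: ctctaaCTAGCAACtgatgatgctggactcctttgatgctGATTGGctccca
H2-DMb1, chr17:34153088-34153140, plus strand: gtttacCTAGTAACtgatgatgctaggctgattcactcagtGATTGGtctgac
H2-Oa, chr17:34092294-34092346, plus strand: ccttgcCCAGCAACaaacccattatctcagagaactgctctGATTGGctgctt
H2-Ob, chr17:34238809-34238858, plus strand: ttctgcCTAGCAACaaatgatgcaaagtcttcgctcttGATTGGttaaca

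The 5 pairs were alike in layout. The boxes were 27 bases apart in H2-Aa, H2-DMb1 and H2-Oa, 26 in H2-Eb1 and 24 in H2-Ob. The X box began between 79 and 97 bases upstream of the RefSeq transcription start. For H2-DMb1 this stretch lies inside the gene as GENCODE draws it, whose start is further upstream. Of all 32851 windows in the table, 39.1% held the X box letters and 16.1% the Y box letters, while 0.329% held the ordered pair at this distance. A match describes letters only, and no binding was measured here.

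Of the 9 genes, 7 lie in the MHC region of chromosome 17 in the GENCODE annotation of GRCm38. In order along it they are H2-Oa from 34092340 to 34095234, H2-DMa from 34119541 to 34139101, H2-DMb1 from 34153072 to 34160230, H2-Ob from 34238903 to 34254414, H2-Ab1 from 34257689 to 34269419, H2-Aa from 34282744 to 34287823 and H2-Eb1 from 34305867 to 34316674. Ciita lies apart on chromosome 16, from 10480059 to 10528418.

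Expression is given as FPKM, a fragment count scaled by transcript length and library size, which the authors computed per gene. The read totals are not in the files, so depth is unknown. The comparisons were made by limma on log2(FPKM + 0.03125). A gene entered the test when 3 or more of the 6 libraries reached 1 FPKM, and it was called at a Benjamini-Hochberg adjusted p under 0.05. Each experiment was fitted on its own. Some libraries stood apart. Tumor replicate 1 had a summed FPKM of 6 adipocyte markers of 1312, against 84.7 and 93.2 in the other tumors. DMSO replicate 1 had a summed FPKM of 8 rows of interferon gamma target genes of 173, against 26.0 and 82.4 in the other DMSO tumors. Markers of mammary epithelium were measured in all groups, and their sum was 455 to 955 FPKM in Normal and 2426 to 3412 FPKM in Tumor.

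All 9 class II genes were lower in Tumor than in Normal. Each had an adjusted p under the threshold, and no tumor library reached the lowest normal library for any of the 9. Over all 13031 genes tested, 31.7% were called lower and 28.8% higher, and 35.8% were lower and 33.1% higher without overlap between the groups, and the median log2 fold change was -0.02 against -2.67 for the 9. The estimated difference was smallest for Ciita, at -1.40 on the log2 scale with its 2 rows summed (-2.81 when only its highest row was used, which makes H2-Ab1, at -2.32, the smallest), and largest for H2-Oa and H2-Ob, at -5.68 and -5.57. In bulk tissue, fewer cells of a type and less RNA per cell cannot be told apart. The tissue, the gland sampled and how many mice went into a library also changed together between Normal and Tumor and cannot be told apart.

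**Figure D1:**
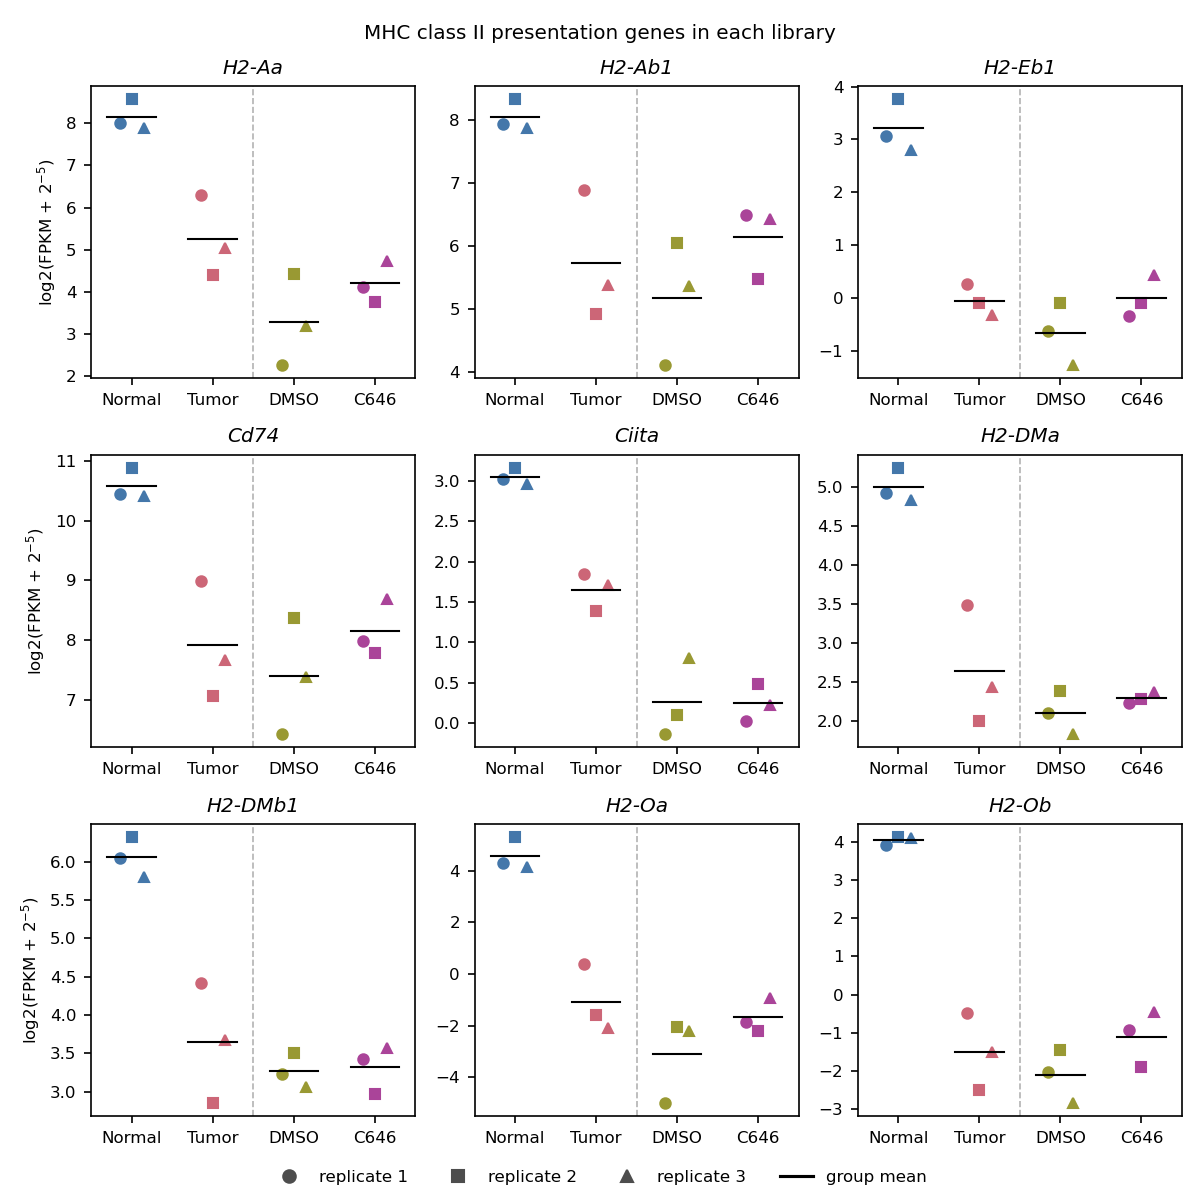
Expression of the 9 class II genes in each library, as log2(FPKM + 0.03125) on the vertical axis (each panel has its own range), by group; symbols are replicates, black lines are group means on this scale, and the dashed line separates the experiments. The 3 Normal libraries lie above the 3 Tumor libraries in every panel, while the DMSO and C646 libraries overlap in every panel.

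The chains of the surface molecule all fell. H2-Aa, the alpha chain of the A molecule, measured 256, 379 and 237 FPKM in Normal and 78.3, 21.2 and 32.9 FPKM in Tumor. All tumors were well below all normal glands, and tumor replicate 1 was the highest of them. The log2 fold change was -2.91 (SE 0.45, 95% interval -3.97 to -1.84, adjusted p = 0.00128), and the ratio of the group means was 6.59.

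H2-Ab1, the beta chain of the same molecule, measured 245, 322 and 235 FPKM in Normal and 119, 30.3 and 41.6 FPKM in Tumor. The groups came closest here, in tumor replicate 1 and normal replicate 3, but did not overlap. The fit gave a log2 fold change of -2.32 (SE 0.47, 95% interval -3.42 to -1.22, adjusted p = 0.00413), and the means differed 4.21-fold.

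H2-Eb1, the beta chain of the E molecule, was far less abundant than either chain of the A molecule. It measured 8.38, 13.5 and 6.89 FPKM in Normal and 1.17, 0.897 and 0.771 FPKM in Tumor. The tumor values lay close together. The estimated log2 fold change was -3.26 (SE 0.30, 95% interval -3.97 to -2.55, adjusted p = 1.24e-04), a 10.1-fold difference of the means.

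Cd74, the invariant chain, was the most abundant of the 9 in every library and made up 66.8% to 75.7% of their summed FPKM. Its row is joined with Mir5107 in the files. It measured 1390, 1883 and 1364 FPKM in Normal and 511, 134 and 204 FPKM in Tumor. Even the highest tumor, replicate 1, was below every normal gland. The fit gave a log2 fold change of -2.67 (SE 0.46, 95% interval -3.75 to -1.58, adjusted p = 0.00207), with a 5.46-fold difference of the means.

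The estimates for the peptide exchange factor H2-DM were near that of H2-Ab1. H2-DMa, its alpha chain, measured 30.2, 37.8 and 28.6 FPKM in Normal and 11.2, 3.95 and 5.39 FPKM in Tumor. H2-DMb1, a beta chain whose row is joined with the close copy H2-DMb2, measured 66.1, 79.9 and 56.0 FPKM in Normal and 21.3, 7.18 and 12.7 FPKM in Tumor. For both genes the tumors were below the normal glands without overlap, and the reads of the beta chain copies cannot be told apart in the joined row. Log2 fold changes were -2.36 for H2-DMa (SE 0.36, 95% interval -3.21 to -1.51, adjusted p = 0.00118) and -2.41 for H2-DMb1 (SE 0.37, 95% interval -3.28 to -1.54, adjusted p = 0.00119).

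H2-O, the inhibitor of H2-DM, showed the largest differences of the set. H2-Oa, its alpha chain, measured 19.6, 39.4 and 17.9 FPKM in Normal and 1.28, 0.299 and 0.205 FPKM in Tumor. H2-Ob, its beta chain, measured 15.2, 17.5 and 17.3 FPKM in Normal and 0.683, 0.143 and 0.317 FPKM in Tumor. For both chains tumor replicate 1 stood above the other tumors, and the highest and lowest tumor differed 6.23-fold for H2-Oa and 4.78-fold for H2-Ob, the widest spread of the 9 genes in this group. Even so, replicate 1 was more than 10 times below the normal glands. The group means differed 43.2-fold for H2-Oa and 43.8-fold for H2-Ob. Log2 fold changes were -5.68 for H2-Oa (SE 0.64, 95% interval -7.20 to -4.17, adjusted p = 3.01e-04) and -5.57 for H2-Ob (SE 0.48, 95% interval -6.69 to -4.45, adjusted p = 9.45e-05). With a pseudocount of 1 these values were -4.04 and -3.70, and without tumor replicate 1 the value for H2-Oa was -6.43.

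Ciita, which encodes the coactivator of the other class II genes, showed the smallest difference of the 9 only when its rows were summed. The Normal and Tumor files hold 2 rows of this name. The sum measured 8.10, 8.89 and 7.75 FPKM in Normal and 3.55, 2.58 and 3.23 FPKM in Tumor, with narrow spread in both groups. The log2 fold change was -1.40 (SE 0.18, 95% interval -1.83 to -0.98, adjusted p = 5.43e-04), and the means differed 2.64-fold.

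The 2 Ciita rows moved in opposite directions when they were kept apart, a comparison added after the data had been seen. The first row measured 7.81, 8.64 and 7.62 FPKM in Normal and 0.933, 1.49 and 0.997 FPKM in Tumor. The second row measured 0.289, 0.258 and 0.132 FPKM in Normal and 2.61, 1.08 and 2.24 FPKM in Tumor. The first row, which held nearly all of the normal signal, fell by 2.81 on the log2 scale (SE 0.23, adjusted p = 8.43e-05), close to the change of the A chains, while the second rose by 2.93 (SE 0.48, adjusted p = 0.00164). The files do not say what part of the locus each row covers. The libraries carry no strand, so reads from any gene that overlaps a row on the opposite strand could not be told apart. Whether this affected either row was not tested.

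Because FPKM is per length, the levels of the genes can also be set in order. FVB mice carry another MHC haplotype than the reference, and its effect on mapping, and so on this order, was not tested. In Normal the mean ± SD (n = 3) was 1546 ± 293 FPKM for Cd74, 291 ± 76.7 for H2-Aa, 267 ± 47.6 for H2-Ab1, 67.3 ± 12.0 for H2-DMb1, 32.2 ± 4.89 for H2-DMa, 25.6 ± 11.9 for H2-Oa, 16.7 ± 1.25 for H2-Ob, 9.57 ± 3.44 for H2-Eb1 and 8.25 ± 0.588 for Ciita. Neighbours whose ranges overlapped were H2-Aa with H2-Ab1, H2-DMa with H2-Oa, and H2-Eb1 with Ciita. In Tumor H2-Ab1 stood above H2-Aa, and the order also changed at the bottom. Cd74 at 283 ± 201 FPKM, H2-Ab1 at 63.5 ± 48.1 and H2-Aa at 44.1 ± 30.2 still led, followed by H2-DMb1 at 13.7 ± 7.14 and H2-DMa at 6.84 ± 3.83. Ciita at 3.12 ± 0.495 FPKM now stood above H2-Eb1 at 0.947 ± 0.205, H2-Oa at 0.594 ± 0.594 and H2-Ob at 0.381 ± 0.276. The place of Ciita rests on the sum of its 2 rows, and the first row alone, at 0.933, 1.49 and 0.997 FPKM, overlapped H2-Eb1.

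The RNA ratio of inhibitor to exchange factor differed between Normal and Tumor. The ratio of summed H2-O to summed H2-DM FPKM was 0.361, 0.484 and 0.417 in Normal and 0.0603, 0.0397 and 0.0289 in Tumor. Every tumor had less H2-O RNA for its H2-DM RNA than any normal gland, by 10.2-fold in the geometric means. In bulk tissue such a ratio also depends on the mix of cells in a library, and that part was not tested. The ratio of H2-Aa to H2-Ab1, examined after the values had been seen, was 1.05, 1.18 and 1.01 in Normal and 0.660, 0.699 and 0.790 in Tumor. Here too the groups did not overlap, with a difference of -0.59 on the log2 scale. In an exact two-sided permutation test both ratios gave p = 0.1, the smallest value that 3 libraries against 3 can give.

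Summed over the 9 genes, class II FPKM was 2038, 2781 and 1971 in Normal and 748, 200 and 301 in Tumor, a 6.28-fold difference of the geometric means. The tumor libraries differed among themselves more than the normal libraries did. Normal libraries pooled the glands of several mice and tumor libraries did not. Pooling averages over mice, so these spreads cannot show that tumors vary more than normal glands. Tumor replicate 1 was the highest tumor for 9 of the 9 genes and tumor replicate 2 the lowest for 7. Without replicate 1 all 9 genes were still called lower, with log2 fold changes from -6.43 to -1.50. In Normal, replicate 2 was the highest library for 9 of 9.

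**Figure D2:**
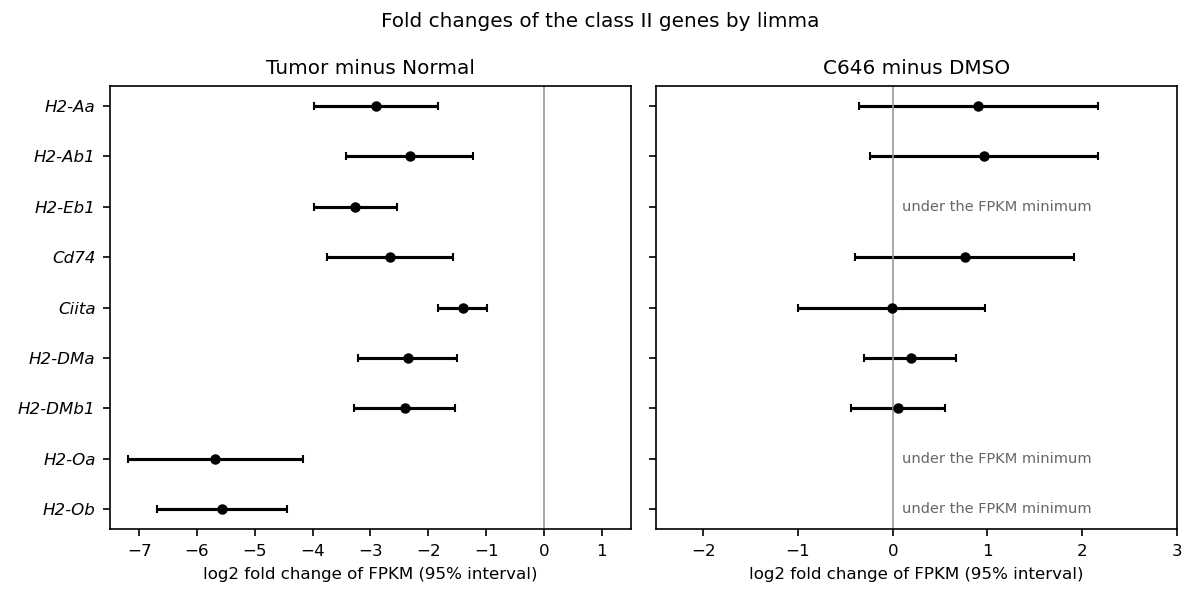
Log2 fold change of each class II gene by limma with its 95% interval, for Tumor minus Normal on the left and C646 minus DMSO on the right; the grey line marks no change. On the left all 9 intervals lie below 0, and on the right the 6 that could be tested all include 0 and H2-Eb1, H2-Oa and H2-Ob were under the FPKM minimum.

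No class II gene was called between DMSO and C646. H2-Aa, H2-Ab1, Cd74, Ciita, H2-DMa and H2-DMb1 had enough FPKM to be tested, and 0 of the 6 were called higher or lower. Over all 12083 genes tested, 0% were called higher and 0% lower. At an unadjusted p under 0.05 there were 384 genes, and none of the 6 was among them. The C646 and DMSO libraries overlapped for every one of the 9 genes, whereas 4.04% of all tested genes were higher and 4.52% lower in C646 without overlap.

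Among the 6 genes tested, H2-Aa, H2-Ab1 and Cd74 had the highest estimates and the widest intervals. H2-Aa measured 4.77, 21.4 and 9.12 FPKM in DMSO and 17.3, 13.5 and 26.4 FPKM in C646. DMSO replicate 1 was the lowest library and C646 replicate 3 the highest, with DMSO replicate 2 inside the C646 range. The estimated log2 fold change was 0.90 (95% interval -0.36 to 2.17, adjusted p = 0.99).

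H2-Ab1 measured 17.2, 66.1 and 41.3 FPKM in DMSO and 90.5, 44.5 and 86.4 FPKM in C646. Cd74 measured 85.7, 331 and 167 FPKM in DMSO and 253, 219 and 413 FPKM in C646. In both genes DMSO replicate 1 was again the lowest of the 6 and DMSO replicate 2 lay above C646 replicate 2. Log2 fold changes were 0.96 for H2-Ab1 (95% interval -0.24 to 2.17, adjusted p = 0.99) and 0.76 for Cd74 (95% interval -0.40 to 1.92, adjusted p = 0.99). Without DMSO replicate 1 the estimates dropped to 0.39 for H2-Aa, 0.43 for H2-Ab1 and 0.27 for Cd74, and without DMSO replicate 2 they were 1.47, 1.40 and 1.25. These intervals leave room for a rise of over 3-fold and for a small fall.

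H2-DM was measured more tightly, with an SE of 0.20 for H2-DMa and 0.21 for H2-DMb1. H2-DMa gave 4.25, 5.20 and 3.52 FPKM in DMSO and 4.64, 4.83 and 5.13 FPKM in C646, and H2-DMb1 gave 9.33, 11.3 and 8.33 against 10.7, 7.78 and 11.8 FPKM. For both, the C646 values lay among the DMSO values or close to them. Log2 fold changes were 0.19 for H2-DMa (95% interval -0.30 to 0.67, adjusted p = 0.99) and 0.06 for H2-DMb1 (95% interval -0.44 to 0.55, adjusted p = 0.995).

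Ciita, which has 1 row in these files, gave 0.877, 1.04 and 1.71 FPKM in DMSO and 0.984, 1.37 and 1.14 FPKM in C646. The C646 values all lay within the DMSO range. The log2 fold change was -0.01 (SE 0.42, 95% interval -1.0 to 0.98, adjusted p = 0.999), an interval wider than those of H2-DM.

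The other 3 genes were near the lower end of detection in these tumors. H2-Eb1 measured 0.612, 0.908 and 0.382 FPKM in DMSO and 0.753, 0.903 and 1.32 FPKM in C646. H2-Oa was listed at 0 in DMSO replicate 1 and measured 0.209 and 0.185 FPKM in the other DMSO tumors, with 0.243, 0.185 and 0.491 FPKM in C646. H2-Ob measured 0.213, 0.333 and 0.107 FPKM in DMSO and 0.493, 0.234 and 0.693 FPKM in C646. C646 replicate 3 was the highest library for each of them, and the groups overlapped. With no minimum on FPKM, the log2 fold change was 0.66 for H2-Eb1, 1.42 for H2-Oa and 1.01 for H2-Ob, and all 3 had an adjusted p of 0.925.

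The H2-O to H2-DM ratio was 0.0157, 0.0328 and 0.0246 in DMSO and 0.0478, 0.0333 and 0.0699 in C646. The C646 values were all higher, but C646 replicate 2 exceeded DMSO replicate 2 only narrowly, and each H2-O chain was under 1 FPKM in every one of these libraries. The difference was 1.04 on the log2 scale, with p = 0.1 in the exact two-sided permutation test, again the smallest value possible. The H2-Aa to H2-Ab1 ratio was 0.278, 0.324 and 0.221 in DMSO and 0.191, 0.302 and 0.305 in C646, with overlap and an exact permutation p = 0.8.

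**Figure D3:**
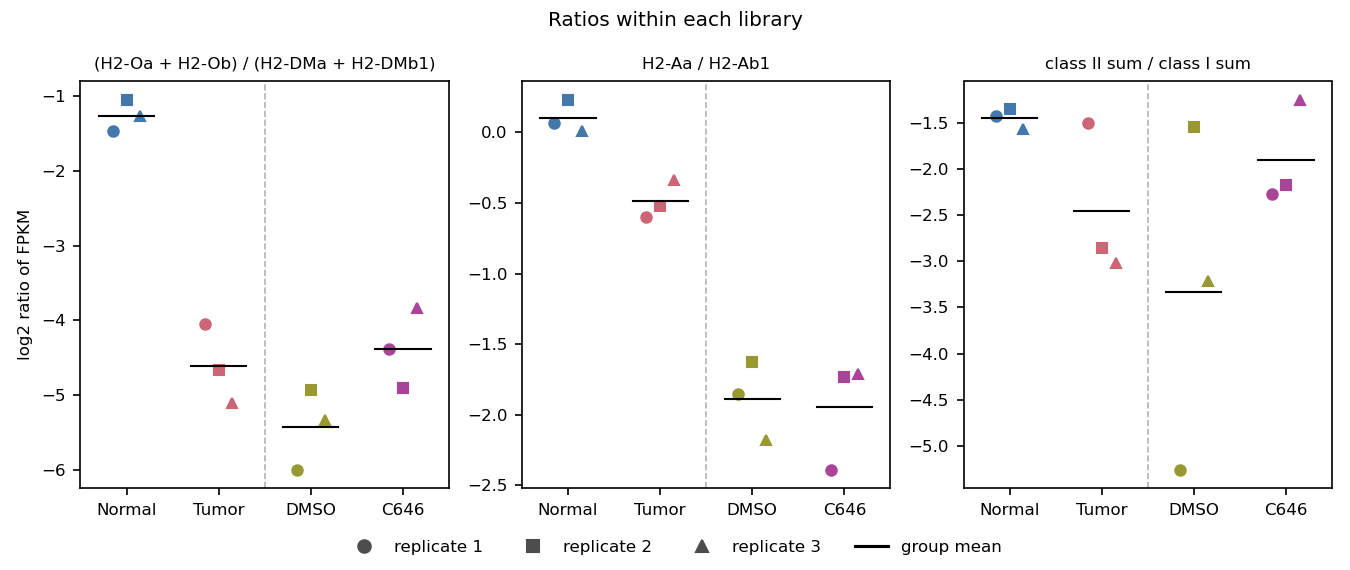
Log2 ratios of FPKM within each library for H2-O to H2-DM, H2-Aa to H2-Ab1, and summed class II to summed class I genes; symbols are replicates, black lines group means, and the dashed line separates the experiments. The first and second ratios are lower in all Tumor than in all Normal libraries, while class II to class I overlaps in both comparisons.

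Expression of class II was spread unevenly over the injected tumors. The summed FPKM of the 9 genes was 123, 438 and 231 in DMSO and 379, 292 and 547 in C646. DMSO replicate 2 was the highest of its group for 8 of the 9 genes, DMSO replicate 1 the lowest for 5, and C646 replicate 3 the highest of its group for 7. The summed dendritic cell markers were 4.62, 12.4 and 9.83 FPKM in DMSO and 8.70, 11.0 and 21.1 FPKM in C646. Only 2 of these 10 rows, Itgax and the joined row of Clec10a and Mgl2, had enough FPKM to be tested. They held most of each sum, with 5.51 and 13.4 FPKM in C646 replicate 3, so the sums say little about the other markers. Within DMSO they came in the same order as class II. In C646 replicate 3 led for both, but replicates 1 and 2 were in the opposite order. The macrophage markers, which were more abundant, summed to 502, 586 and 494 FPKM in DMSO and 514, 557 and 762 FPKM in C646, with DMSO replicate 3 and not replicate 1 the lowest of its group. The summed adipocyte markers were also higher in each C646 tumor, at 58.7, 264 and 302 FPKM, than in the DMSO tumors, at 9.95, 43.4 and 47.2 FPKM. The part of these cells in the class II values was not tested.

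Class I presentation, the route that displays peptides from the cytosol on nearly all cells, ranked these libraries differently from class II. The sum of 9 class I genes was 4701, 1271 and 2133 FPKM in DMSO and 1827, 1311 and 1297 FPKM in C646. DMSO replicate 1 thus had the highest class I sum and the lowest class II sum of the 6. The summed interferon gamma targets of 173, 26.0 and 82.4 FPKM in DMSO and 35.2, 27.4 and 35.4 FPKM in C646 were also highest in that library. None of the 8 class I genes and 5 target rows that were tested was called, and the median log2 fold change was -0.62 for class I and -1.09 for the targets, against 0.47 for class II and -0.02 for all genes. The class II to class I ratio ran from 0.0262 to 0.344 in DMSO and from 0.207 to 0.421 in C646.

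In the first experiment both routes were lower in the tumors, class I by less. Of 9 class I genes tested, 0 were called higher and 8 lower, beside 28.8% higher and 31.7% lower over all genes. The median log2 fold change was -1.05. Nlrc5, the coactivator of class I and a relative of CIITA, fell by 3.98 on the log2 scale, and B2m, the light chain of class I, by 2.53. Tapbp, which helps load class I, had a value of 0.10 and was not called. The class II to class I ratio was 0.375, 0.391 and 0.337 in Normal and 0.352, 0.139 and 0.124 in Tumor, so tumor replicate 1 lay within the normal range and the groups overlapped.

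Other class II genes were lower in the tumors as well. H2-Eb2, a further beta chain, measured 4.87, 7.15 and 5.41 FPKM in Normal and was listed at 0 in 2 tumors and at 0.0347 FPKM in the third. H2-Ea-ps, the E alpha chain gene that is a pseudogene in the reference strain, measured 19.7, 20.7 and 19.6 FPKM in Normal and 0.882, 0.282 and 0.742 FPKM in Tumor, a log2 fold change of -5.05. Both were called lower. In the DMSO and C646 tumors neither reached the minimum for a test.

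Genes that prepare peptides and cut the invariant chain were called in both directions. Of 12 genes tested, 2 were called higher and 5 lower in Tumor, beside 28.8% higher and 31.7% lower over all genes, and the median log2 fold change was -0.31. March1, a ubiquitin ligase that takes class II off the surface, fell by 3.91 on the log2 scale. Ctsh, the protease cathepsin H, rose by 1.58. Cst3, an inhibitor of cathepsins, fell by 1.11, and Ctsb, cathepsin B, fell by 1.04. Ctss, the cathepsin that makes the last cuts in the invariant chain, fell by 0.68, a small change beside that of Cd74. No gene of this list was called between DMSO and C646.

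Most factors that act on the class II promoters were not called between Normal and Tumor. Of 9 genes tested, 2 were called higher and 1 lower, beside 28.8% higher and 31.7% lower over all genes. The median log2 fold change was -0.15. Nfyc, a subunit of the Y box factor NF-Y, rose by 1.06 on the log2 scale, and Rfxap, a subunit of the X box factor RFX, rose by 0.68. Ep300, which encodes p300, measured 8.65, 8.57 and 7.59 FPKM in Normal and 3.06, 3.74 and 3.19 FPKM in Tumor, and fell by 1.31. In the injected tumors the p300 gene measured 10.1, 9.08 and 5.84 FPKM in DMSO and 11.3, 9.16 and 10.3 FPKM in C646, with overlap, and the log2 fold change was 0.33 (95% interval -0.21 to 0.88, adjusted p = 0.99). C646 acts on the protein, whose activity RNA does not show. For the p300 protein, the paper reports by western blot a higher level in tumors than in normal tissue. That direction is opposite to the fall of Ep300 RNA from Normal to Tumor.

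The interferon gamma route, which can switch on Ciita, was lower in Tumor. Ifng itself was at most 0.605 FPKM in Normal and was listed at 0 in all 3 tumors. Of the 7 other genes of signalling in the list, 0 were called higher and 6 lower, beside 28.8% higher and 31.7% lower over all genes. Socs1, a feedback inhibitor, fell by 2.39 on the log2 scale, and Ifngr1, a receptor chain, by 1.40. Among 8 rows of target genes 0 were called higher and 6 lower, led by Cxcl9 at -6.07, Gbp5 at -5.48 and Gbp4 at -5.11 (Cxcl9 encodes a T cell attractant, and the Gbp genes encode GTPases of cell defence).

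Genes for the contact with T cells were lower as well. All 4 costimulatory genes tested were called lower in Tumor, beside 31.7% of all genes. Cd40, which B cells and dendritic cells carry, fell by 4.48 on the log2 scale, Icosl by 3.50 and Cd80 by 3.0. The T cell genes for receptors of class II, Cd4 and Lag3, were both called lower, with log2 fold changes of -6.28 and -3.15. Between DMSO and C646 only 2 of the 4 costimulatory genes could be tested, and 0 were called, while Cd4 and Lag3 were under the FPKM minimum.

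The cell types that carry class II were not equally represented in the groups. The 10 B cell markers summed to 322 to 410 FPKM in Normal and 0.946 to 1.73 FPKM in Tumor, with 10 of 10 called lower, each under 1 FPKM in all tumors, and Ms4a1 and Cr2 listed at 0 in every tumor. The 10 dendritic cell rows summed to 149 to 205 FPKM in Normal and 8.41 to 16.7 FPKM in Tumor, with 9 of 10 called lower and Itgax, at -0.20, not called. The 10 macrophage markers summed to 1133 to 1346 FPKM in Normal and 469 to 776 FPKM in Tumor, with 5 of 10 called lower beside 31.7% of all genes. The markers called lower were Mrc1, Csf1r, Lyz2, Adgre1 and Cd68, at -2.97, -2.28, -1.70, -1.29 and -0.94 on the log2 scale. None was called higher. Those not called were the complement genes C1qa, C1qb and C1qc, at -0.55, -0.13 and -0.58, Mertk at -1.06 and Fcgr1 at 0.66.

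Other tissue components moved in the same direction. T cell markers, with 8 of 8 called lower, summed to 329 to 452 FPKM in Normal and 3.09 to 4.42 FPKM in Tumor. Markers of lymph node stroma, with 3 of 3 called lower, summed to 74.5 to 93.5 FPKM in Normal and 0.292 to 0.648 FPKM in Tumor. Adipocyte markers, with 6 of 6 called lower, summed to 17460 to 22270 FPKM in Normal and 84.7 to 1312 FPKM in Tumor. Epithelial markers went the other way, with 5 of 7 called higher. Over all genes, 31.7% were called lower and 28.8% higher. Tumor replicate 1 had the highest class II sum of the untreated tumors. It also had the highest sums of adipocyte, dendritic cell, macrophage, B cell, T cell, endothelial and epithelial markers. Its total FPKM was the highest too, at 783719 against 685102 and 625568. Its lymph node stroma sum was the lowest, at 0.292 FPKM against 0.587 and 0.648. Its interferon gamma target sum was also the lowest, at 21.5 FPKM against 26.6 and 56.9. Its class I sum of 2121 FPKM was below the 2438 FPKM of replicate 3. How much of the class II difference went with the cells of these markers was not tested.

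**Figure D4:**
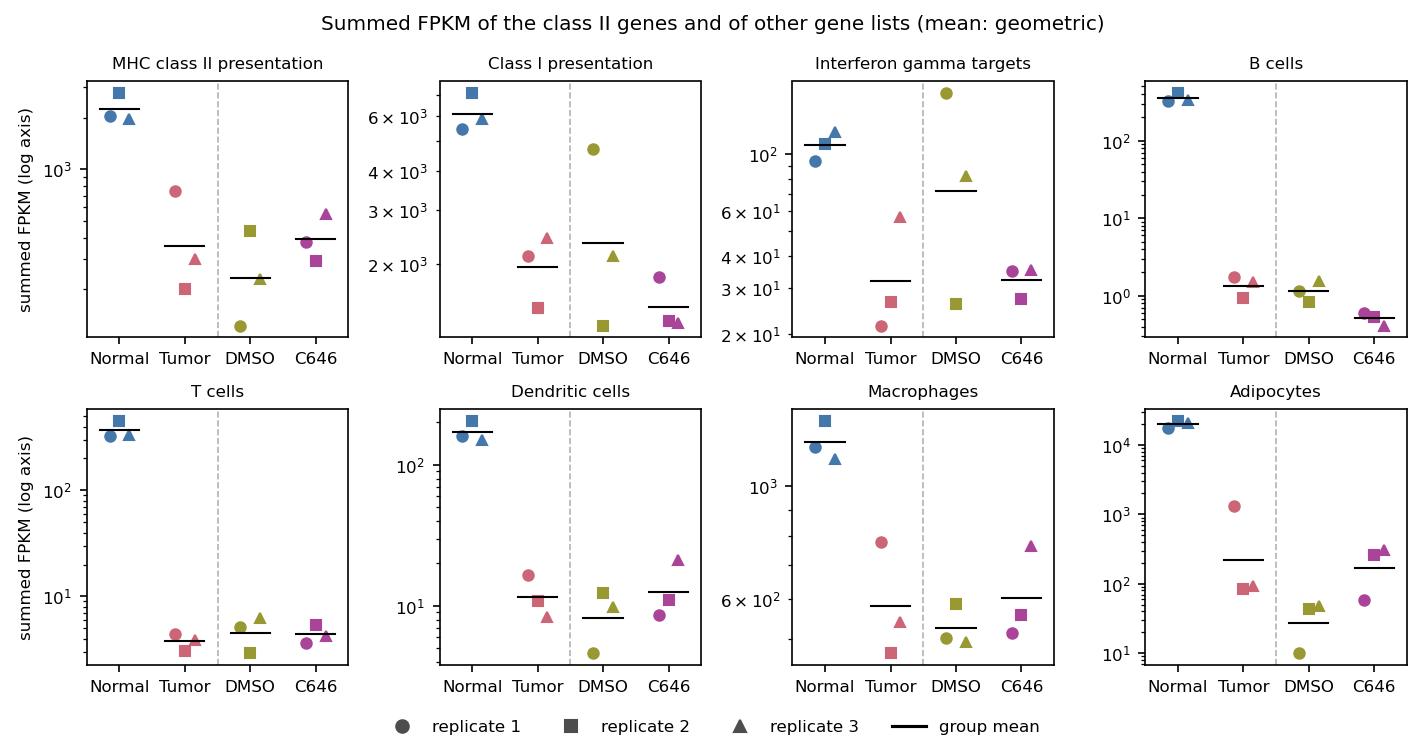
Summed FPKM on log axes (each panel has its own range) of the class II genes and of 7 other lists in each library; symbols are replicates, black lines are geometric means, and the dashed line separates the experiments. B and T cell markers are near 1 to 6 FPKM or below in all tumors. The class II sum is at least 123 FPKM and the macrophage sum at least 469 FPKM in each tumor. The lists hold different genes, so their sums are not comparable with each other, and the cell source of class II RNA was not tested.

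The class II pattern was also compared with that of other genes through all 12 libraries. Likeness was measured as the mean absolute difference on the log2 scale, after centring each experiment, from the mean profile of the 6 class II genes tested in both comparisons. The members themselves lay between 0.154 and 0.510 from that profile. Of 11477 other genes ranked, the median distance was 0.826, and the closest 10 were Epas1, Loxl1, Cxx1c, Proca1, Irf5, Serpinf1, Fam105a, Cpeb1, Cyp27a1 and Foxp1. Epas1, a hypoxia-inducible transcription factor, was the nearest at 0.144, and Foxp1, a forkhead transcription factor, closed the list at 0.215. Irf5, an interferon regulatory factor of myeloid and B cells, was at 0.192. The libraries of an experiment share the difference between its groups, so these distances are a description only.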

How the data were processed

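Reads of non-directional poly-A libraries were trimmed with Cutadapt, mapped to mm10 with TopHat 2.1.1 and summarised per gene by Cufflinks 2.2.1, and the authors deposited FPKM values, 1 table per library (versions per the labels); the gene annotation is not given in the sources used here. Samples were grouped by their labels. Rows without a name (1837 of 26220 in Normal and Tumor, 0 of 24304 in DMSO and C646) were dropped and repeated names summed. Limma 3.58.1 in R 4.3.3 (eBayes with a variance trend) was run on log2(FPKM + 0.03125), within each experiment, and tested on simulated data. Low genes have understated fold changes on this scale. Ratios were compared by an exact permutation test in scipy 1.17.1. FVB mice carry another MHC haplotype than the reference, and its effect on mapping was not tested. P-values measure the spread between libraries. Low FPKM steps put the depths of the DMSO and C646 libraries within 1.44-fold of each other. Members and lists were chosen with earlier results of these data known. All 9 members were named, and list examples were those called with the largest fold change. Exceptions, chosen after their values were seen, were Ctss, Tapbp, Itgax, Ms4a1, Cr2, all macrophage markers and, for C646, Ep300 and the Clec10a row. The values of 1 further list gene are not reported here. Alternatives changed the pseudocount, filter, scaling, repeated rows, variance trend, replicate block and libraries.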

Additional observations from a re-analysis of the deposited data

How the results depend on the processing

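The 9 class II genes were called lower in Tumor under every alternative pseudocount, filter, scaling, variance model and left-out library, with adjusted p up to 0.0193 (H2-Ab1 without normal replicate 2). The exception was Ciita with its rows kept apart, where the second row rose by 2.93; with only its highest row Ciita was at -2.81 and no longer the smallest difference of the 9. Over all genes, 2611 were called lower with a mean of at least 5 FPKM, where fewer genes (9399) were tested. Between DMSO and C646, 0 class II genes were called under any alternative, and leaving out 1 library gave 0 to 11 genes called lower over all genes, with 11 without DMSO replicate 2. Replicate numbers are shared by the groups. For Normal with Tumor, deviations correlated at -0.0982 to 0.0104 between same-numbered libraries and at -0.0625 to 0.0929 between differently numbered ones. For DMSO with C646 the values were 0.0699 to 0.175 and -0.234 to 0.141, so the same-numbered ones were all positive there. The ranges overlapped in both experiments, and the numbers were not taken to pair samples. With the replicate block 3439 genes were called higher and 3827 lower in Tumor, 9 class II genes among the latter, and 0 between DMSO and C646. The log2 class II to class I ratio of C646 to DMSO was 1.44, and 0.48 without DMSO replicate 1 or 2.34 without DMSO replicate 2. Read totals are not in the files, so the reads behind values under 1 FPKM, such as H2-Oa and H2-Ob in tumors, are unknown.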
